A study of Mus musculus with 10 samples.

Results

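The genes described here are the matrix metalloproteases (Mmp), the membrane proteases of the ADAM family (Adam), the secreted ADAMTS proteases (Adamts), the ADAMTS-like proteins (Adamtsl) and the tissue inhibitors of metalloproteases (Timp) of the mouse. They were taken by gene symbol, and this choice was made with earlier results of these data known. Of the 55401 genes in the count table, 85 carried such a symbol: 23 Mmp, 34 Adam, 19 Adamts, 5 Adamtsl and 4 Timp genes. Their RNA was measured in the ectoderm of forelimb buds, the epithelial covering whose distal rim forms the apical ectodermal ridge, a signalling centre for limb outgrowth. The 2 groups compared were embryos at E9.75, an embryonic stage of early limb buds, with the genotype label SP8&SP6_DOUBLE_KO (DKO, 3 libraries) and WT embryos of the same stage that the labels name as their littermates (WT, 3 libraries). Sp8 and Sp6 encode zinc finger transcription factors of the SP/KLF family. The labels give no strain, no litter for a sample and no description of the mutant alleles. The ectoderm of about 2 forelimb buds, freed with 0.25% trypsin on ice for 20 min, went into a library. Libraries of Sp6KO embryos at E10.5 and of their WT littermates are also named in the labels and were not analysed here.

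Matrix metalloproteases and ADAMTS enzymes cut collagens, proteoglycans and other components of the extracellular matrix, while ADAMs mostly cut membrane proteins and release their outer part. TIMPs bind the active site of these enzymes, and ADAMTS-like proteins resemble ADAMTS proteins but lack the protease domain. In mouse limbs, Adamts5, Adamts9 and Adamts20 are known for cleaving the proteoglycan versican during regression of the tissue between the digits.

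Library totals ranged from 64432348 to 87040786 counts. Levels are given as CPM, the read count of a gene relative to the library total, scaled by TMM, and libraries are named by the number of their column. The targeted gene Sp8 had 5.86, 2.38 and 2.80 CPM in DKO 17, DKO 40 and DKO 41, against 34.1, 43.2 and 31.3 CPM in WT 32, WT 53 and WT 56 (edgeR quasi-likelihood test, adjusted p = 0.000811). Sp6 had 133, 13.9 and 76.9 CPM in the DKO libraries, against 228, 312 and 320 CPM in the WT libraries (adjusted p = 0.206). Of 6 fits with 1 library left out, only 1 gave Sp6 an adjusted p under 0.05. It was 0.0489 in that fit, without DKO 40, and up to 0.445 in the rest. Gene totals cannot tell whether these reads came from a deleted part. Exons of Sp6 share 3329 bases with Gm11532 on the opposite strand, so counts of that stretch could belong to either gene. All 20 ectoderm and epithelium markers examined were counted, with summed levels of 3304 to 4506 CPM in DKO and 5245 to 5749 CPM in WT. All 20 ridge markers were counted as well, with sums of 748 to 1223 CPM in DKO and 3209 to 3887 CPM in WT, and 13 of them were called lower. All 18 markers of limb mesenchyme were counted, with sums of 917 to 1491 CPM in DKO and 814 to 967 CPM in WT. Msx1 and Col1a2 made up most of these sums. In DKO 17, DKO 40 and DKO 41 the other 16 summed to 207, 364 and 208 CPM. In WT 32, WT 53 and WT 56 they summed to 328, 153 and 194 CPM. Of these 16, Prrx2 averaged 108 CPM in DKO and 35.1 CPM in WT, and Pdgfra averaged 7.66 and 66.6 CPM. Pdgfra was called lower (edgeR quasi-likelihood test, adjusted p = 0.00699). It was the only call among the 18 markers (5.56%), where 4.51% of all genes tested were called. Red blood cell markers summed to 27.1, 127 and 919 CPM in DKO 17, DKO 40 and DKO 41, against 0.116, 301 and 0 CPM in WT 32, WT 53 and WT 56. Of the endothelial markers 9 of 10 were counted, with sums of 52.3 to 75.4 CPM in DKO and 34.5 to 48.7 CPM in WT and Cdh5 at 0, but nearly all of this was Egfl7, and the other 9 summed to 1.32 to 2.09 CPM in DKO and 1.14 to 1.61 CPM in WT. Of the macrophage markers 8 of 10 were counted, with sums of 1.46 to 3.26 CPM in DKO and 0.733 to 2.24 CPM in WT and C1qa and Adgre1 at 0. Markers of neural crest, glia and muscle precursors were counted in 10 of 11 cases, with sums of 43.0 to 51.7 CPM in DKO and 110 to 154 CPM in WT and Foxd3 at 0. Without Tubb3, which carried that difference, the other 10 summed to 41.8 to 47.8 CPM in DKO and 38.3 to 41.6 CPM in WT. The part of these cell types in the results that follow was not tested. In tissue RNA such as this, fewer cells of a type and less RNA per cell cannot be told apart.

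Of the 85 genes, 60 had a count in at least 1 library and 39 had counts in all 6. The filter on low counts left 50 of them for testing. At an adjusted p under 0.05, 7 of these 50 were lower in DKO and 0 were higher. Over all 19126 genes tested, 4.51% were called, with 2.81% lower and 1.7% higher. At an unadjusted p under 0.05, 14 of the 50 were lower and 4 were higher, where 18% of all genes tested passed, 9.36% lower and 8.67% higher. DESeq2 called 10 members lower and 2 higher, where 8.23% of the genes it tested were called, 4.66% lower and 3.57% higher. The 7 lower genes were the secreted proteases Adamts20, Adamts3 and Adamts5, the inhibitor Timp3, the membrane proteases Adam9 and Adam10, and the gelatinase Mmp2. The median log2 fold change of DKO over WT was -0.34 over the 50 tested members and 0.03 over all genes tested. It was below 0 for 35 members and above 0 for 15, against 8967 and 10159 of all genes tested. In 19 of the 50 the libraries of the groups did not overlap, 15 of them lower and 4 higher in DKO. Over all genes tested 21.9% did not overlap, with 11.3% lower and 10.6% higher.

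**Figure D1:**
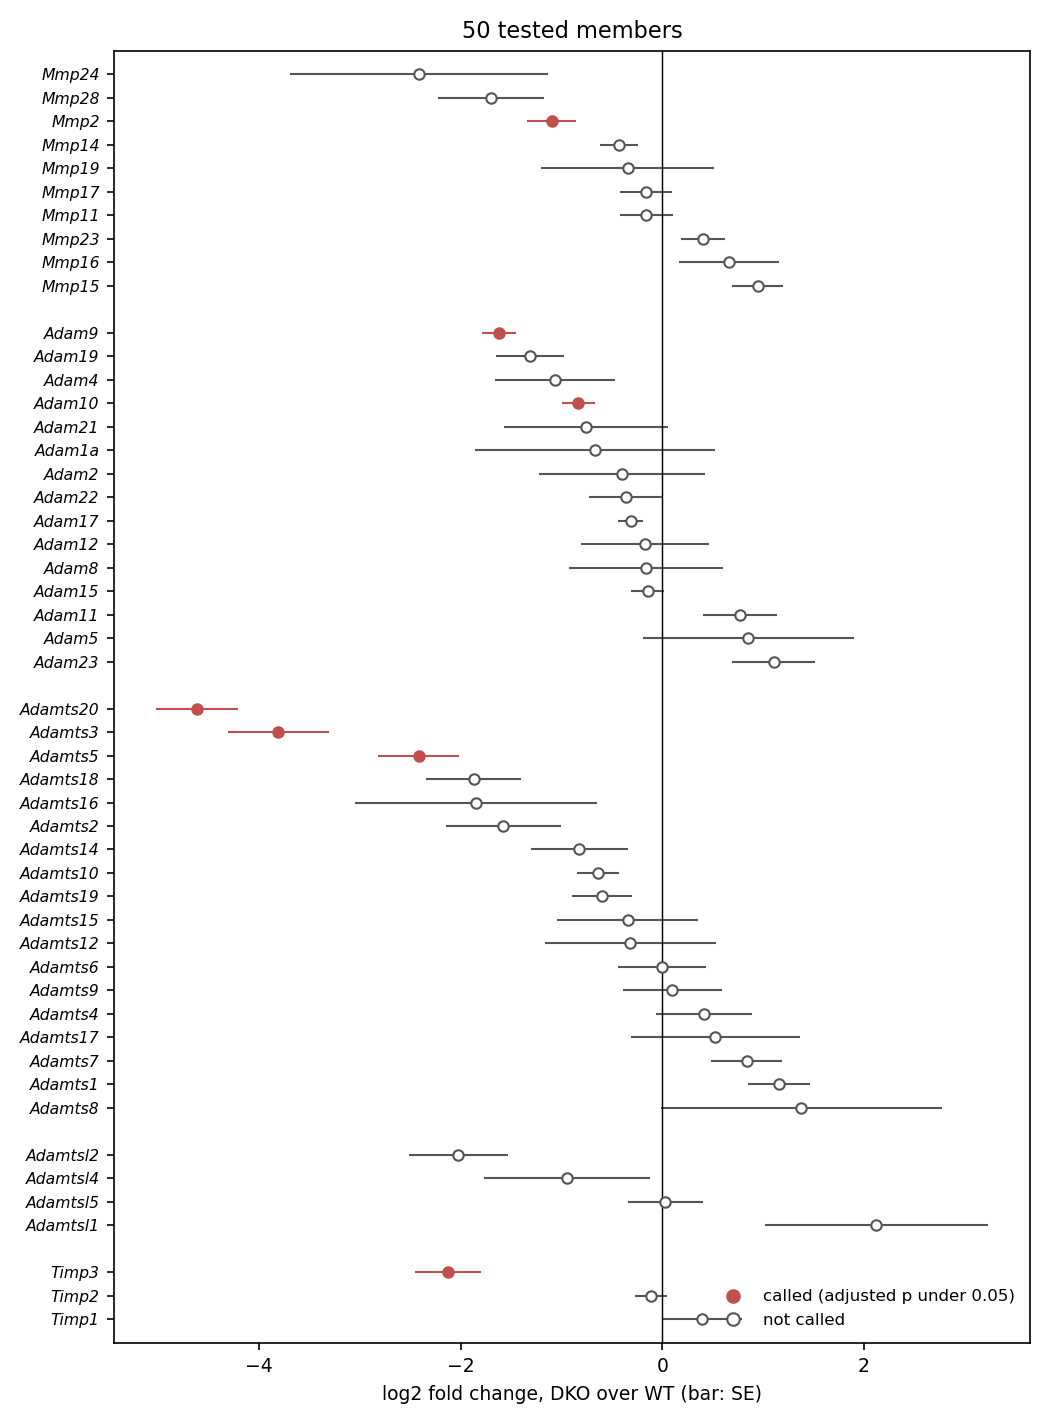
Log2 fold change of DKO over WT (horizontal axis) for the 50 tested members, grouped by family. Points are estimates, bars are standard errors (SE), and filled red points are the 7 members called at an adjusted p under 0.05, all of them left of 0.

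Promoter sequences are shown for 4 of the 7 lower genes, since SP/KLF factors such as Sp8 and Sp6 are known to bind GC boxes. Each is the 250 bases before the RefSeq start (build GRCm38.p6), read 5′ to 3′ on the strand of the gene, and capitals mark the letters GGGCGG or their reverse complement CCGCCC. The windows are chr15:94404351-94404600 (minus strand) for Adamts20, chr5:89883335-89883584 (minus strand) for Adamts3, chr10:86300162-86300411 (plus strand) for Timp3 and chr9:70678732-70678981 (plus strand) for Adam10.
Adamts20: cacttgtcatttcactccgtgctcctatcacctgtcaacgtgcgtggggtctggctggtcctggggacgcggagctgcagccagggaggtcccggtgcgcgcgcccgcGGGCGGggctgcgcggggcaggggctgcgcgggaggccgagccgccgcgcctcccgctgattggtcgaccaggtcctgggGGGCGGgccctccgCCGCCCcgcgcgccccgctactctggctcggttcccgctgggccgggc
Adamts3: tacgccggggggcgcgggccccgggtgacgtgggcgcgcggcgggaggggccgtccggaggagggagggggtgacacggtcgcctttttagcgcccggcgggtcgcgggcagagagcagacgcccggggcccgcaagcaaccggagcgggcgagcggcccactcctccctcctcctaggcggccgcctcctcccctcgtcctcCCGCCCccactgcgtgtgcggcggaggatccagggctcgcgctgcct
Timp3: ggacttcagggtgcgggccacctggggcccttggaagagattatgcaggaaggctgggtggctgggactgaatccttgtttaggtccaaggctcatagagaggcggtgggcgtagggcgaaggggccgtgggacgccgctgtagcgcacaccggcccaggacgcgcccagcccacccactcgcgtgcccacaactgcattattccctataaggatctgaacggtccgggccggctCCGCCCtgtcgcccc
Adam10: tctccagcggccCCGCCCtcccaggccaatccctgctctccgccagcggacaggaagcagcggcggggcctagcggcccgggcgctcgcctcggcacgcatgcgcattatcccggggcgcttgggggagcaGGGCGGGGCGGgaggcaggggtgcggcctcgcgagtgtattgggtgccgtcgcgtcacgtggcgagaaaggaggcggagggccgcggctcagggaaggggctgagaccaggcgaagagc

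Adamts20 and Adam10 held 3 matches each, and Adamts3 and Timp3 held 1 each. Counted from the listed start, the matches began at -142, -62 and -48 in Adamts20 and at -47 in Adamts3. They began at -15 in Timp3 and at -238, -119 and -114 in Adam10, where the last 2 share 1 base. The listed start of Adamts20 lies 61068 bases inside the gene as GENCODE M21 draws it, so it is not the outermost start. Windows were matched by symbol and chromosome for 54 of the 85 genes. Adamts5, Adam9 and Mmp2 were not among them. Any window on chromosome 18, where Adamts19 lies, was left out for members, a step not applied to the set of all windows. A match on either strand was present in 32.7% of 32851 promoter windows of this length. It was present in 66.7% of 33 windows of tested members and in 62.1% of 29 windows of members that were tested and not called. The median GC content was 63.6% in the windows of tested members and 52.4% in all windows. A match of letters is a description of the sequence and shows no binding.

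Among the ADAMTS enzymes that cleave proteoglycans, 7 of 7 were tested, 2 were called lower and none was called higher. Among all genes tested, 2.81% were called lower and 1.7% higher. Adamts20 (ENSMUSG00000022449.14, chromosome 15, 94270163 to 94465418, GRCm38) is known in the mouse from the belted coat mutation. It had 1.44, 0.941 and 0.0784 CPM in DKO 17, DKO 40 and DKO 41, against 19.2, 18.3 and 21.4 CPM in WT 32, WT 53 and WT 56. The 3 WT libraries lay close together, every DKO library was far below them, and DKO 41 was lowest with 7 counts. The means were 0.820 ± 0.689 CPM in DKO and 19.6 ± 1.61 CPM in WT (SD, n = 3 each), a 23.9-fold lower level in DKO (log2 fold change -4.62, SE 0.409, edgeR quasi-likelihood test, adjusted p = 0.00076). Adamts20 was called lower in 6 of 6 fits with 1 library left out, with log2 fold changes of -5.36 to -4.04.

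Adamts5 (ENSMUSG00000022894.6, chromosome 16, 85856173 to 85901828) is the main enzyme that cuts aggrecan in mouse cartilage. It had 3.88, 1.74 and 1.43 CPM in the DKO libraries, against 8.18, 14.3 and 15.4 CPM in the WT libraries. The groups did not overlap, with DKO 17 and WT 32 nearest to each other. Adamts5 was 5.37-fold lower in DKO (log2 fold change -2.42, SE 0.402, adjusted p = 0.0124). The call was lost without DKO 40 (log2 fold change -2.26, adjusted p = 0.0746) and without WT 56 (-2.24, adjusted p = 0.0692), with a similar fold.

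None of the other 5 proteoglycan-cleaving enzymes was called. Adamts1, an inflammation-induced enzyme that also cuts versican, had 32.2, 66.6 and 31.6 CPM in the DKO libraries, against 15.8, 19.1 and 23.3 CPM in the WT libraries. Every DKO library lay above every WT library, and DKO 40 stood highest. The mean level was 2.24-fold higher in DKO, with a log2 fold change of 1.16 (SE 0.308) that missed the threshold (adjusted p = 0.0733; 0.00512 with DESeq2). Adamts9, the closest relative of Adamts20, had 5.49, 1.02 and 3.36 CPM in the DKO libraries and 3.10, 3.90 and 2.51 CPM in the WT libraries, with overlapping groups. The ratio of Adamts20 to Adamts9, each per kb of exon, was 0.439, 1.54 and 0.0390 in the DKO libraries and 10.4, 7.83 and 14.3 in the WT libraries. Exons of Adamts9 overlap antisense genes that this chemistry cannot separate.

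The procollagen N-proteinases remove the amino-terminal propeptide of fibrillar collagens. All 3 were tested, 1 was called lower, and in all 3 the DKO libraries lay below the WT libraries. Among all genes tested, 2.81% were called lower, and in 11.3% every DKO library lay below every WT library. Adamts3 (ENSMUSG00000043635.12, chromosome 5, 89677087 to 89883334), which in the mouse is also needed to activate the lymphatic growth factor VEGF-C, was the gene called. Its levels were 0.504, 0.732 and 1.09 CPM in DKO 17, DKO 40 and DKO 41, against 8.70, 7.12 and 16.7 CPM in WT 32, WT 53 and WT 56. The DKO libraries were alike, and WT 56 stood above the other WT libraries. Adamts3 was 14.0-fold lower in DKO, at 0.774 ± 0.294 CPM against 10.8 ± 5.11 CPM in WT (log2 fold change -3.81, SE 0.501, adjusted p = 0.00471). It was called in 6 of 6 fits with 1 library left out (-4.18 to -3.36). Adamts2, which acts on type I procollagen, had 0.204, 1.83 and 1.36 CPM in DKO and 2.19, 5.26 and 2.98 CPM in WT (log2 fold change -1.58, SE 0.568, adjusted p = 0.178).

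**Figure D2:**
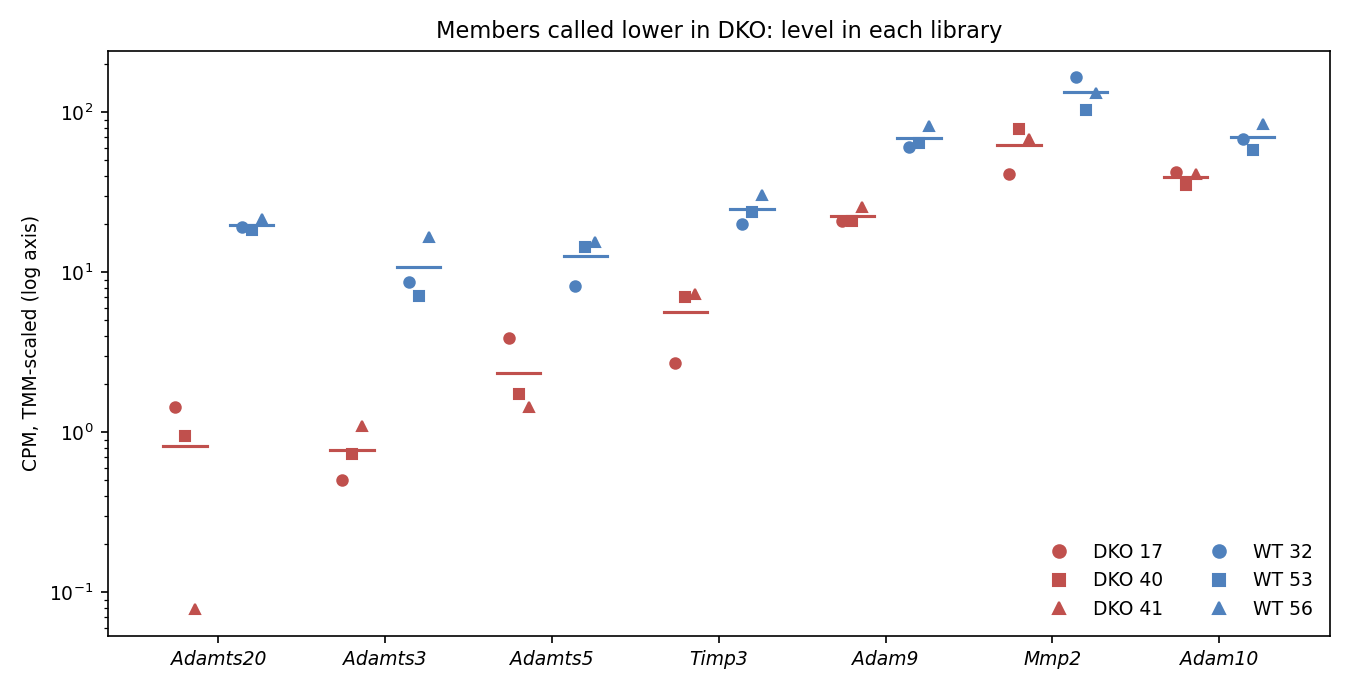
Level in each library (CPM scaled by TMM, log axis) of the 7 members called lower in DKO, with DKO libraries in red left of WT libraries in blue. Horizontal bars are group means; in each of the 7 genes all 3 DKO libraries lie below all 3 WT libraries, and the gap is widest for Adamts20 and Adamts3.

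Of the other ADAMTS enzymes, 8 of 9 were tested and none was called. At an unadjusted p under 0.05, 3 passed, against 18% of all genes tested. Adamts18, which in the mouse is needed for branching of epithelial organs, was the most abundant ADAMTS gene of the WT ectoderm per kb of exon. It had 47.8, 10.1 and 24.2 CPM in the DKO libraries, against 90.5, 75.5 and 135 CPM in the WT libraries. The groups did not overlap, but the DKO libraries were spread widely, and DKO 17 lay closest to WT. The log2 fold change was -1.87 (SE 0.471, adjusted p = 0.0718), and without DKO 17 it was -2.53 (adjusted p = 0.0140). With DESeq2 the adjusted p was 0.0435. Adamts10, a fibrillin-binding family member, had 15.8, 10.7 and 16.9 CPM in DKO and 22.7, 20.6 and 24.4 CPM in WT (log2 fold change -0.64, SE 0.206, adjusted p = 0.132). Again no DKO library reached a WT library. Adamts17, whose human counterpart is, like that of Adamts10, mutated in Weill-Marchesani syndrome, had 1.31, 3.83 and 17.01 CPM in DKO and 6.40, 1.22 and 7.37 CPM in WT. Its log2 fold change was 0.53 (SE 0.837) with all libraries and -1.07 without DKO 41. Adamts7, which cuts cartilage oligomeric matrix protein, averaged 6.91 ± 2.82 CPM in DKO and 3.78 ± 0.847 CPM in WT (adjusted p = 0.256). Adamts19 averaged 4.40 ± 1.04 CPM in DKO and 6.83 ± 1.78 CPM in WT (adjusted p = 0.333).

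Of the 5 ADAMTS-like genes 4 were tested and none was called. At an unadjusted p under 0.05, 1 passed, against 18% of all genes tested. Adamtsl2, whose human counterpart is mutated in geleophysic dysplasia and binds fibrillin, had 1.99, 0.497 and 4.73 CPM in the DKO libraries, against 10.1, 7.30 and 12.6 CPM in the WT libraries. All DKO libraries were below all WT libraries, with DKO 41 nearest to them. The log2 fold change was -2.02 (SE 0.494, adjusted p = 0.0552), and -3.002 without DKO 41 (adjusted p = 0.0194). Adamtsl2 was called in only 1 of 6 fits with 1 library left out, with adjusted p-values up to 0.214. With DESeq2 the adjusted p was 0.0198.

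Among the widely expressed ADAMs with a metalloprotease motif, 7 of 9 were tested, and all 7 had a log2 fold change below 0. Of these, 2 were called lower. Among all 19126 genes tested, 8967 had a log2 fold change below 0 and 2.81% were called lower. Adam9 (ENSMUSG00000031555.15, chromosome 8, 24949611 to 25016927), a widely expressed membrane protease, had 20.9, 20.97 and 25.6 CPM in DKO 17, DKO 40 and DKO 41, against 60.9, 64.1 and 82.1 CPM in WT 32, WT 53 and WT 56. The groups were well apart and tight, with DKO 41 and WT 56 somewhat above their own groups. The means of 22.5 ± 2.71 CPM in DKO and 69.0 ± 11.4 CPM in WT gave a 3.07-fold lower level in DKO (log2 fold change -1.62, SE 0.168, adjusted p = 0.0015). Adam9 was called in 6 of 6 fits with 1 library left out (-1.73 to -1.48).

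Adam10 (ENSMUSG00000054693.14, chromosome 9, 70678997 to 70780229), which cuts Notch receptors and E-cadherin at the cell surface, had 42.1, 35.1 and 40.8 CPM in the DKO libraries, against 68.0, 58.0 and 84.2 CPM in the WT libraries. No DKO library reached a WT library, but the gap between DKO 17 and WT 53 was smaller than the range of WT. The level was 1.78-fold lower in DKO (log2 fold change -0.84, SE 0.165, adjusted p = 0.0249). The call was lost without DKO 40, DKO 41, WT 32 or WT 56, with log2 fold changes of -0.88 to -0.69 and adjusted p-values up to 0.127. Adam17, the main sheddase of TNF and of EGF receptor ligands, had 54.4, 55.1 and 58.0 CPM in DKO and 62.1, 74.4 and 71.8 CPM in WT. The groups did not overlap here either, but the log2 fold change was only -0.31 (SE 0.124, adjusted p = 0.225).

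Adam19, needed for heart development in the mouse, had 2.76, 4.65 and 4.27 CPM in DKO and 11.3, 5.51 and 11.5 CPM in WT. WT 53 lay close to the DKO libraries. The log2 fold change of -1.31 (SE 0.342) had an adjusted p of 0.0694 with all libraries, 0.0306 without WT 53 and 0.00951 with DESeq2. Adam19 was called in only 1 of 6 fits with 1 library left out, with adjusted p-values up to 0.256. Adam15 was at 21.2 ± 1.501 CPM in DKO and 23.5 ± 2.49 CPM in WT (adjusted p = 0.713), and its groups overlapped; 1263 bases of its exons overlap an antisense gene.

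The ADAMs of nervous tissue lack the zinc-binding motif of a protease and act in cell contact. All 3 were tested and none was called, with 1 at an unadjusted p under 0.05, where 18% of all genes tested passed. Adam23 had 2.51, 1.63 and 1.40 CPM in DKO and 0.903, 1.03 and 0.687 CPM in WT (log2 fold change 1.10, SE 0.416, adjusted p = 0.198), with every DKO library above every WT library. Adam11 had 6.24, 13.2 and 15.3 CPM in DKO and 8.42, 4.28 and 7.27 CPM in WT (log2 fold change 0.77, SE 0.365, adjusted p = 0.314), with DKO 17 inside the WT range. Of the other 22 ADAMs, most of them known from the testis, 15 had no count in any library. Another 5 were tested and none was called, with 0 at an unadjusted p under 0.05, against 18% of all genes tested. Adam1a belongs to these, at 9.95, 1.29 and 1.17 CPM in DKO and 2.77, 0 and 15.8 CPM in WT. Its value is uncertain, because 4779 bases of its exons overlap Gm42878 and 1805 bases overlap Mapkapk5, both on the same strand.

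Mmp2 (ENSMUSG00000031740.8, chromosome 8, 92827291 to 92853420) encodes gelatinase A, a secreted enzyme that the membrane-bound Mmp14 product activates with the help of Timp2. It had 41.01, 78.6 and 68.1 CPM in DKO 17, DKO 40 and DKO 41, against 165, 104 and 132 CPM in WT 32, WT 53 and WT 56. The groups did not overlap, although DKO 40 came near WT 53. The level was 2.14-fold lower in DKO (log2 fold change -1.10, SE 0.246, adjusted p = 0.0401). The call was lost when any of the 6 libraries was left out, with log2 fold changes of -1.29 to -0.87 and adjusted p-values of 0.0501 to 0.153. Mmp2 was highest in DKO 40 and WT 32, the libraries in which 10 and 12 of the 18 mesenchyme markers were highest within their group, Prrx1 among them. The sum of all 18 markers, mostly Msx1 and Col1a2, was 1491, 1325 and 917 CPM in the DKO libraries and 814, 967 and 854 CPM in the WT libraries. That sum was highest where Mmp2 was lowest in each group. The other 16 markers summed to 207, 364 and 208 CPM in the DKO libraries and 328, 153 and 194 CPM in the WT libraries. Their sum was highest where Mmp2 was highest in each group. It included Prrx2 and Pdgfra, whose means differed between the groups in opposite directions. The part of mesenchymal RNA in the Mmp2 result was not tested.

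Of the 6 membrane-type MMPs 5 were tested and none was called. At an unadjusted p under 0.05, 1 passed, against 18% of all genes tested. Mmp14, a collagenase of the cell surface, had 133, 139.9 and 217 CPM in DKO 17, DKO 40 and DKO 41, against 200.4, 213 and 245 CPM in the WT libraries. DKO 41 lay inside the WT range and the other DKO libraries below it. The log2 fold change was -0.43 (SE 0.189, adjusted p = 0.279), and -0.70 without DKO 41 (adjusted p = 0.0281). Mmp14 was called in only 1 of 6 fits with 1 library left out, with adjusted p-values up to 0.630. Mmp15, a close relative of Mmp14, ran the other way, with 30.0, 21.2 and 15.9 CPM in DKO and 12.6, 10.6 and 11.5 CPM in WT. Every DKO library was above every WT library, and the WT libraries were tight. Its log2 fold change of 0.94 (SE 0.252) had an adjusted p of 0.0744 with all libraries, 0.0303 without DKO 41 and 0.00681 with DESeq2. Mmp15 was called in only 1 of 6 fits with 1 library left out, with adjusted p-values up to 0.259. Mmp17, which is held in the membrane by a lipid anchor, averaged 9.26 ± 1.27 CPM in DKO and 10.2 ± 3.06 CPM in WT (adjusted p = 0.813).

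Of the remaining MMPs, Mmp11 (stromelysin 3, which is activated inside the cell) was abundant and had 45.6, 57.1 and 101 CPM in DKO and 69.8, 73.0 and 84.3 CPM in WT. DKO 41 exceeded every WT library while the other DKO libraries lay below them, and no difference between groups was detectable (log2 fold change -0.16, SE 0.260, adjusted p = 0.815). Mmp23, a membrane-tethered MMP, had 10.6, 9.78 and 13.8 CPM in DKO and 7.79, 9.02 and 9.16 CPM in WT, with no overlap (log2 fold change 0.40, SE 0.219, adjusted p = 0.385). Mmp28, an MMP known from keratinocytes, was low, with 0.168, 0.536 and 0.235 CPM in DKO and 0.834, 1.25 and 0.973 CPM in WT. Its libraries did not overlap either (log2 fold change -1.70, SE 0.526, adjusted p = 0.113).

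Of the 4 inhibitors 3 were tested, and Timp3 was called lower, where 2.81% of all genes tested were called lower. Timp3 (ENSMUSG00000020044.13, chromosome 10, 86300372 to 86349506) stays bound to the matrix and, unlike other TIMPs, is a strong inhibitor of ADAM17 and of ADAMTS aggrecanases. It had 2.71, 6.95 and 7.32 CPM in DKO 17, DKO 40 and DKO 41, against 19.9, 23.7 and 30.4 CPM in WT 32, WT 53 and WT 56. All DKO libraries were well below WT, DKO 17 furthest. The means were 5.66 ± 2.56 CPM in DKO and 24.7 ± 5.28 CPM in WT, a 4.36-fold lower level in DKO (log2 fold change -2.13, SE 0.325, adjusted p = 0.00884). Timp3 was called in 6 of 6 fits with 1 library left out (-2.38 to -1.79). Its exons share 1733 bases with Syn3 on the opposite strand, so counts of that stretch could belong to either gene.

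Timp2, which takes part in Mmp2 activation, was the most abundant inhibitor and had 65.8, 75.5 and 81.9 CPM in DKO and 83.9, 64.9 and 92.6 CPM in WT. Its groups overlapped (log2 fold change -0.12, SE 0.158, adjusted p = 0.771). Timp1 had 2.84, 6.91 and 3.64 CPM in DKO and 2.98, 4.56 and 2.76 CPM in WT, again with overlap (log2 fold change 0.40, SE 0.395, adjusted p = 0.675). Timp4 had 5 counts in WT 56 and none elsewhere. Per kb of exon, the ratio of Timp3 to Timp2 was 0.0197, 0.0440 and 0.0428 in the DKO libraries and 0.114, 0.175 and 0.157 in the WT libraries, with no overlap.

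Levels can be compared between genes only per length, so CPM were divided by the kb of exon of each gene. In WT the order began with Mmp2 (39.7 CPM per kb), Mmp14 (36.8), Mmp11 (27.3), Timp2 (20.7), Adam9 (16.8), Adam10 (14.3), Adamts18 (9.86) and Adam17 (9.70). In this order Mmp14 was separate from Mmp11, Mmp11 from Timp2, and Adam17 from the next gene; the libraries of the other neighbours overlapped. In DKO the order began with Mmp14 (27.4 CPM per kb), Mmp11 (24.4), Timp2 (19.1), Mmp2 (18.6) and Adamts1 (8.20), which was in place 12 in WT. Adamts20 was in place 40 in DKO and 15 in WT, Adamts3 in place 34 in DKO and 17 in WT, and Timp3 in place 20 in DKO and 13 in WT. The summed CPM of the 34 Adam genes were 166 ± 11.1 in DKO and 263 ± 38.8 in WT. Those of the 19 Adamts genes were 122 ± 1.63 in DKO and 218 ± 45.6 in WT. Single genes weigh heavily in such sums, which are not scaled by length. Adamts18, which was not called, averaged 27.4 CPM in DKO and 100 CPM in WT. Adamts1 went the other way, with 43.5 CPM in DKO and 19.4 CPM in WT. The summed CPM of the 23 Mmp genes were 342 ± 82.8 in DKO and 464 ± 41.5 in WT. For the 4 Timp genes they were 84.5 ± 11.5 in DKO and 109 ± 16.3 in WT.

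**Figure D3:**
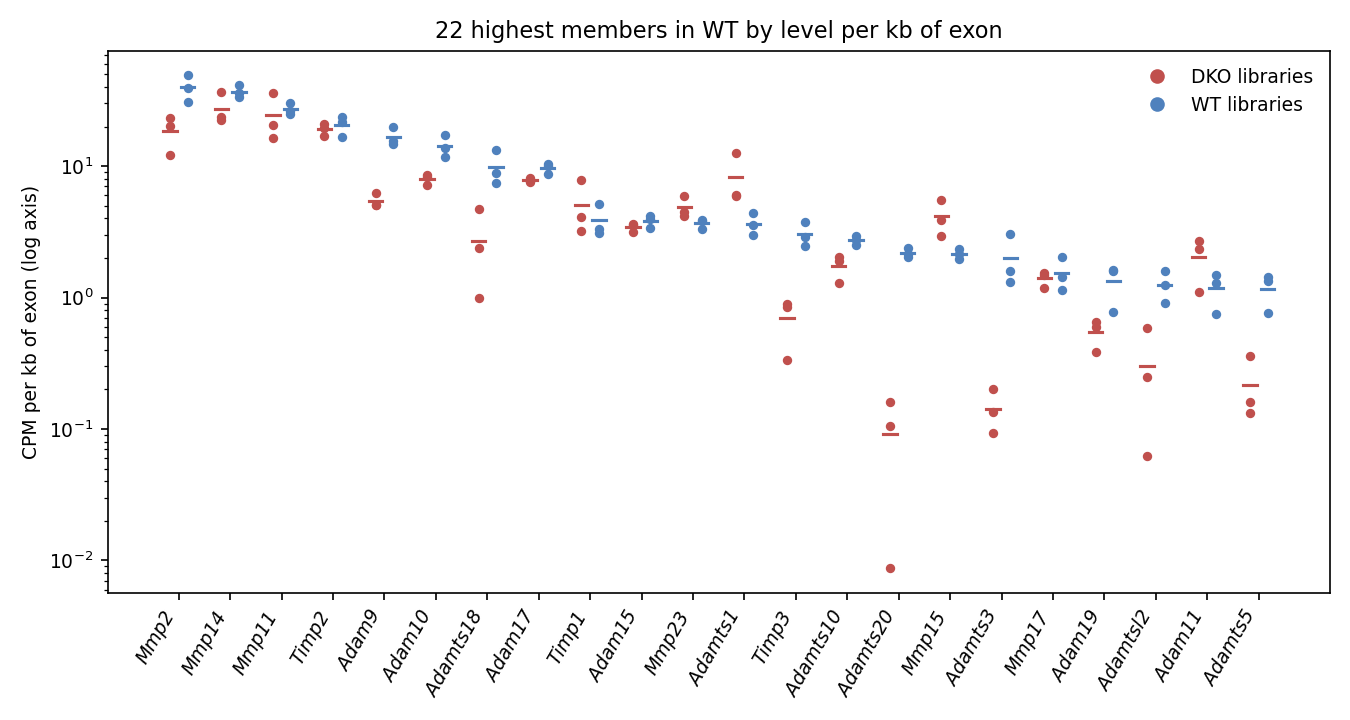
Level per kb of exon (CPM per kb, log axis) of the 22 members highest in WT, ordered by their WT mean, with DKO libraries in red left of WT libraries in blue and horizontal bars for the means. Mmp2, Mmp14, Mmp11 and Timp2 stay at the top in DKO, while Adamts20 and Adamts3 lie far below their neighbours.

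A set of 25 members had no count in any library, where 3 counts over the 6 libraries would be 0.00617 CPM. They were Mmp1a, Mmp1b, Mmp3, Mmp7, Mmp10, Mmp12, Mmp13, Mmp20, Mmp27, Adam3, Adam6a, Adam6b, Adam7, Adam18, Adam20, Adam24, Adam25, Adam26a, Adam26b, Adam29, Adam30, Adam33, Adam34, Adam34l and Adam39. They include 3 of the 4 interstitial collagenase genes, and the remaining collagenase, Mmp8, had 9 counts in WT 56 alone. The gelatinase Mmp9 had 27 counts in DKO 41 alone. In all, 10 members were counted but too low to test: Mmp8, Mmp9, Mmp21, Mmp25, Adam1b, Adam28, Adam32, Adamts13, Adamtsl3 and Timp4, with at most 39 counts in a library.

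The calls differed in how many of the fits with 1 library left out kept them. Adamts20, Adamts3, Timp3 and Adam9 stayed below an adjusted p of 0.05 in all 6 such fits, with highest adjusted p-values of 0.00912, 0.0346, 0.0473 and 0.0160. Adamts5 did so in 4 fits, Adam10 in 2 and Mmp2 in 0. The direction of these 7 genes was the same in all 6. Fewer genes were called over the whole table in some of these fits as well, 295 without DKO 40, 313 without WT 32 and 247 without WT 56, against 863 with all libraries.

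**Figure D4:**
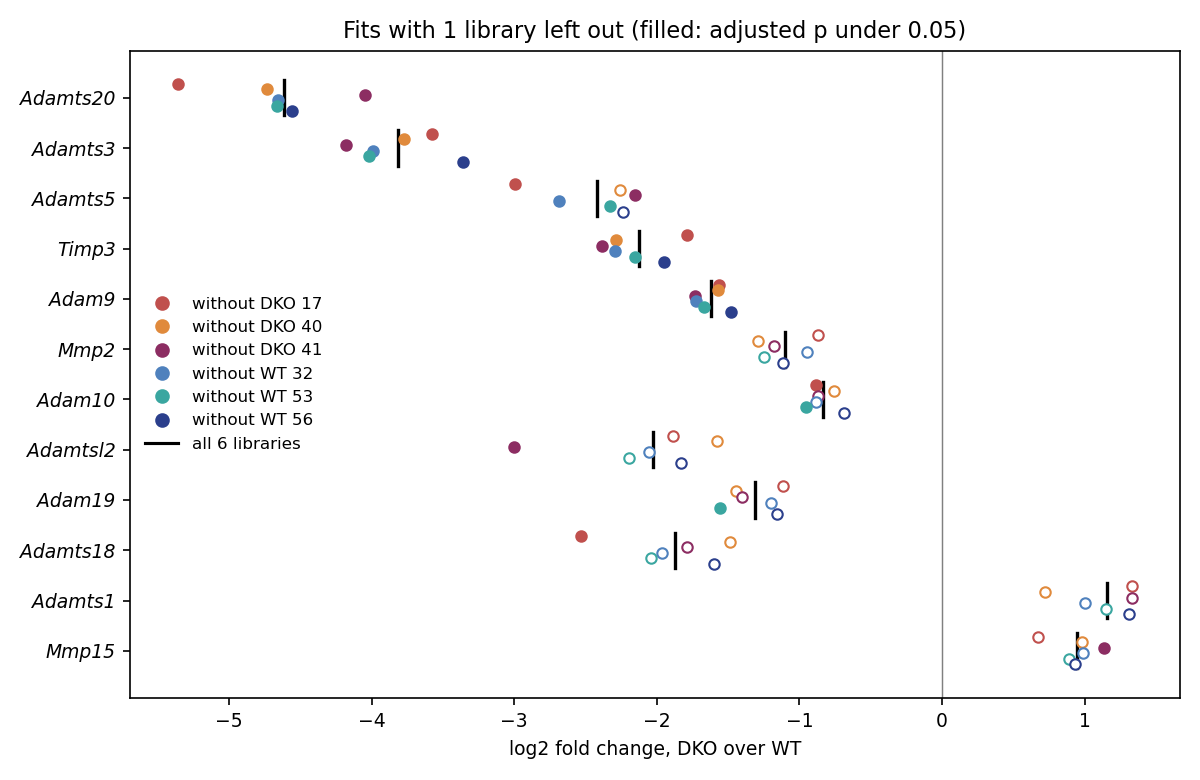
Log2 fold change of DKO over WT (horizontal axis) of the 7 called members and of 5 members near the threshold, with all 6 libraries (black line) and with each library left out in turn (points, filled where the adjusted p was under 0.05). Adamts20, Adamts3, Timp3 and Adam9 have 6 filled points each and Mmp2 has none.

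Other genes of the same pathways were described from lists outside the symbol rule. Among 17 maturation, trafficking and docking partners of ADAM10, ADAM17 and MMPs, 16 were tested, 3 were called lower (18.8%) and none higher. Over all genes tested, 4.51% were called, with 2.81% lower and 1.7% higher. The median log2 fold change was -0.22 in the list and 0.03 over all genes tested. Rhbdf1, which carries ADAM17 to the cell surface, had 63.9, 46.5 and 51.2 CPM in DKO and 85.1, 106 and 111 CPM in WT. It was 1.87-fold lower in DKO (log2 fold change -0.90, SE 0.161, adjusted p = 0.0169). The call was lost without DKO 40, DKO 41, WT 53 or WT 56. Pcsk6, a proprotein convertase, had 9.11, 9.30 and 4.55 CPM in DKO and 23.3, 17.01 and 26.5 CPM in WT. It was 2.91-fold lower in DKO (log2 fold change -1.56, SE 0.289, adjusted p = 0.0195). That call was lost without DKO 40, WT 32 or WT 56. Cd44, a hyaluronan receptor that docks MMPs and also one of the ridge markers above, had 4.07, 1.05 and 0.784 CPM in DKO and 39.9, 36.8 and 45.2 CPM in WT, and was called in 6 of 6 fits with a library left out. With 1 library left out, between 1 and 4 genes of this list were called lower: 1 without DKO 40 or WT 56, and 4 without DKO 17.

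Membrane proteins known to be cut by ADAM10 or ADAM17 included 6 called lower of 19 tested (31.6%) and none higher. Over all genes tested 4.51% were called, 2.81% lower. The median log2 fold change was -0.10 in the list and 0.03 over all genes tested. The 6 genes were Cd44, the cadherins Cdh2 and Cdh1, the Notch ligands Dll1 and Jag1, and the adhesion molecule Epcam. Cdh2 had 5.81, 6.59 and 3.54 CPM in DKO and 47.7, 42.9 and 58.9 CPM in WT, a 9.38-fold lower level in DKO (log2 fold change -3.25, SE 0.241, adjusted p = 0.000313) that was called in 6 of 6 fits with a library left out. Jag1 had 9.60, 7.32 and 6.09 CPM in DKO and 22.6, 14.1 and 31.8 CPM in WT (log2 fold change -1.59, SE 0.316, adjusted p = 0.0254). Dll1 was 3.59-fold lower in DKO (adjusted p = 0.0203), Cdh1 2.13-fold lower (adjusted p = 0.0439) and Epcam 1.45-fold lower (adjusted p = 0.0228). Cdh1 and Epcam are also ectoderm markers of the list above. Without DKO 40, WT 32 or WT 56 the calls of Jag1, Dll1, Cdh1 and Epcam were lost, which left 2 genes of the list called. Jag1 was also lost without DKO 41, Cdh1 without DKO 17 and Epcam without WT 53.

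In the plasminogen system, an activator cascade of MMPs, 6 of 9 genes were tested. Of these, 1 was called higher and 1 lower (33.3%), where 4.51% of all genes tested were called. Plat, tissue plasminogen activator, had 5.69, 9.61 and 12.0 CPM in DKO and 1.86, 1.66 and 2.24 CPM in WT, a 4.73-fold higher level in DKO (log2 fold change 2.23, SE 0.367, adjusted p = 0.0118). Its inhibitor Serpine2 had 190.1, 177 and 257 CPM in DKO and 355, 366 and 361 CPM in WT, 1.74-fold lower in DKO (log2 fold change -0.79, SE 0.145, adjusted p = 0.0183). Both calls were lost without DKO 40, WT 32 or WT 56, and that of Serpine2 also without WT 53. Plg itself, the precursor of plasmin, was at 0 in all libraries.

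Of 15 tested microfibril and elastic fibre genes, 3 were called lower and 1 higher (median log2 fold change -0.20). Together these were 26.7% of the tested genes of the list, against 4.51% of all genes tested. Fbln1, a known cofactor of Adamts1, had 122, 127 and 145 CPM in DKO and 220.4, 217 and 237 CPM in WT (log2 fold change -0.77, SE 0.112, adjusted p = 0.00676), and kept its call in 6 of 6 fits with a library left out. Fbln2 was 3.28-fold lower in DKO (adjusted p = 0.0178; lost without DKO 40, WT 32 or WT 56) and Fbln5 7.95-fold lower (adjusted p = 0.0382; kept in 1 of 6 fits, that without WT 53). Emilin1, an elastic fibre glycoprotein, had 73.9, 179 and 97.9 CPM in DKO and 53.01, 40.5 and 41.3 CPM in WT. It was 2.60-fold higher in DKO (adjusted p = 0.0348), a call kept in 1 of 6 fits, that without DKO 17. Of 12 tested genes of fibrillar collagens and their processing, 1 was called lower (8.33%), where 2.81% of all genes tested were called lower. This was Lox, which cross-links collagen. It had 0.0960, 0.0653 and 0 CPM in DKO and 0.880, 0.505 and 0.687 CPM in WT (adjusted p = 0.0207; kept without DKO 41 and without WT 53). None was called among 8 tested other inhibitors of metalloproteases, 10 tested proteoglycan substrates of ADAMTS enzymes and hyaluronan partners, and 7 tested metalloproteases outside the symbol rule. At an unadjusted p under 0.05 these 3 lists held 3, 5 and 3 genes, against 18% of all genes tested.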

How the data were processed

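RNA of mouse forelimb-bud ectoderm was sequenced from SMART-Seq v4 and Nextera XT libraries, per the labels' protocols. That chemistry marks no strand and carries no molecular identifiers. The authors deposited whole-number counts per gene for 6 libraries, 3 per group. In each of the 6 libraries more genes had the value 1 than 2, so low counts may be rounded estimates. FastQC, fastp, HISAT2, Cufflinks, StringTie and DESeq2 and the builds GRCm38 and mm10 are named per the submitters' processing notes; their versions and the counting step were not given in the sources used here. Column names gave the group but no replicate number of the labels. The labels name littermates but not litters, so a p-value reflects only the spread between the samples, which may be technical. Each pair of libraries differed beyond sampling noise.

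Changes were tested with edgeR 4.0.16 (R 4.3.3; filterByExpr, TMM, glmQLFit with robust=TRUE and legacy=FALSE, quasi-likelihood F test) on the whole table, with Benjamini-Hochberg adjustment over the 19126 genes tested; calls needed an adjusted p under 0.05. Standard errors were obtained as the absolute log2 fold change over the root of the F statistic. Alternatives were legacy=TRUE, RLE and upper-quartile scaling, DESeq2 1.42.0, other filters and left-out libraries. Scripts were tested on simulated data. Floors of 3 counts cover counting error only. Positions and exon lengths came from GENCODE M21, which held 55141 of 55401 identifiers. Exons of Adam17, Adam19, Adamts7, Mmp11 and Mmp28 also overlap antisense genes. Among the called genes of the pathway lists, exons of Dll1 share 867 bases and those of Lox 30 bases with antisense genes. Exons of Pcsk6 share 156 bases with Gm45213 on the same strand.

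The members and gene lists were chosen with earlier results of these data known. Members named with values were those called, those with 5 CPM or more in the higher group, all TIMPs, and those with a log2 fold change over 1 in size and no overlap between groups; Adamts9, Mmp8 and Mmp9 were added after their values were seen. From the other lists only called genes are named, apart from Plg and markers.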

Additional observations from a re-analysis of the deposited data

How the results depend on the processing

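No paired analysis was possible because the columns carry no replicate number of the labels. Members called lower numbered 7 in the edgeR test, 6 with legacy=TRUE, 7 with RLE or upper-quartile scaling, 10 with DESeq2, 5 without a filter on low counts and 9 with at least 1 CPM in 3 libraries. DESeq2 kept the 7 and added Adam19, Adamts18 and Adamtsl2, and the 1 CPM filter kept the 7 and added Adam19 and Adamtsl2. Leaving out 1 library gave 4 to 7 lower, 0 or 1 higher and 4 to 8 in either direction. DESeq2 called 2 members higher and 12 in either direction. Over all genes, 863 were called in edgeR, 546 with legacy=TRUE, 1737 with DESeq2, 412 without a filter, and 247 to 917 with 1 library left out. WT 53 was the WT library highest in the summed mesenchyme markers, through Msx1 and Col1a2. DKO 41 was the DKO library highest in red cell markers. Without both WT 53 and DKO 41, 8 members and 996 genes were called. These 8 members were all lower and held 5 of the 7. Adamts5 and Mmp2 were lost, and Adam19, Adamtsl2 and Mmp14 were added. Without both WT 32 and DKO 41, a pair chosen after seeing the data because WT 32 had the highest Prrx1, as it did 12 of the 18 mesenchyme markers within WT, 5 members and 377 genes were called. In the pathway lists, with 2 genes called higher and 13 lower, left-out libraries gave 0 to 3 higher and 3 to 13 lower. With 1 library left out, the log2 fold change ranged over 0 for 5 genes. It ranged from -2.43 without DKO 17 to 1.40 without WT 56 for Adam1a, from -0.57 without DKO 41 to 0.061 without DKO 17 for Mmp11, and from -0.32 without WT 53 to 0.097 without WT 56 for Mmp17. For Timp1 it ranged from -0.042 without DKO 40 to 0.63 without DKO 17, and for Adamts17 from -1.07 without DKO 41 to 1.02 without DKO 17. Adamts17 was at -1.45 without WT 53 and DKO 41 and at -0.91 without WT 32 and DKO 41. None of these 5 genes was called, and the cause was not tested. Adamts20, Adamts3, Timp3 and Adam9 were called in 14 of 14 alternatives, Adamts5 in 11, Adam10 in 8 and Mmp2 in 4. Scaling moved the median log2 fold change of all genes by less than 0.1.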

Other observations

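The neighbouring genes Adamts1 and Adamts5 lie on the same strand of chromosome 16 with 53059 bases between them, and were set side by side after their values were seen. Per kb of exon, the ratio of Adamts1 to Adamts5 was 16.9, 78.0 and 44.8 in DKO 17, DKO 40 and DKO 41, against 3.94, 2.71 and 3.08 in WT 32, WT 53 and WT 56. Adamts5 was called lower and Adamts1 was not called, at log2 fold changes of -2.42 and 1.16.

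Members without counts were often neighbours. Of 10 Mmp genes between 7272514 and 7699585 on chromosome 9, 9 had no count in any library, and Mmp8 had 9 counts. Of 14 Adam genes on chromosome 8, 11 had no count in any library. Adam9 stood out there with 22123 counts over the 6 libraries, while Adam32, which lies 806 bases from it, had 33 counts and Adam5 had 148.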
